A study of Saccharomyces x bayanus with 4 samples.

Results

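The 177 genes described here had the most abundant transcripts among the 5482 genes on the array of the yeast Saccharomyces bayanus, or 3.23% of them, counting only genes with probes of their own. RNA from 4 replicate samples of strain NRRL Y-11845 was labelled with Cy3 and hybridised, each sample on an array of its own, with genomic DNA of that strain in Cy5. Cells were taken in mid-log phase at 30 °C from a rich medium, with no treatment, no deletion and no second group. The study calls such samples biological replicates, but the labels give only a number for each, so the spread between them may be partly technical. In a culture, more RNA in each cell and more cells with that RNA cannot be told apart.

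Every gene had 2 probes of 55 nucleotides. Its level, called V here, is the log2 of the Cy3 over the Cy5 signal after background subtraction, averaged over both probes, minus the value of the median gene of that array. V is thus a level relative to the median gene, and a V of 3 stands for 8 times the ratio of that gene. The 177 genes were chosen by a mean V of at least 3 over the 4 arrays. They were also required to have Cy5 signal well above background for both probes on every array, and no stretch of 20 nucleotides in common with a probe of another gene. Genes in 3 blocks of the assembly (578, 626 and 678) were left out. As V chose the genes, the levels below are descriptions and were not tested against those of other genes.

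In a yeast culture growing in rich medium, a small share of the genes supplies a large part of the messenger RNA. In Saccharomyces cerevisiae this share is known to consist largely of genes for ribosomal proteins, translation factors and enzymes of glycolysis, many of which occur as near-identical pairs. Genes of this kind favour a small set of codons that are read by abundant transfer RNAs. Genomic DNA serves as a reference because nearly every gene is present in it at the same dose, whatever its transcription. The identifiers of the array design were not paired with gene names in the sources used here, so no function is given for any gene, and genes are called by their rank in V.

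A V of at least 3 was reached by 274 genes, or 5.0% of all genes on the array. The filter on Cy5 signal removed 8 of them, with V between 3.02 and 4.61, and left 266. Of these, 85 shared a stretch of 20 nucleotides with a probe of another gene, which was 32.0% of the 266. Over the whole array 211 of 5482 genes, or 3.85%, shared such a stretch. The 85 removed genes had V between 3.0 and 5.05, so the highest unique genes lay above all of them. With the processed signals of the scanner software in place of background-subtracted medians, none of the 177 genes reached a V of 3, and their median V was 0.87. The block filter removed 4 more genes, with V of 3.18 to 4.26. The Cy3 signal of the remaining 177 genes was also well above background on every array.

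Their median V was 3.78, with quartiles of 3.37 and 4.27 and a range of 3.0 to 5.75. A V of at least 4 was found for 69 of the 177 genes, and a V of at least 5 for 9. On single arrays 156 genes stayed at or above 3 on all 4 arrays, whereas 21 fell below it on at least 1. Just inside the threshold the lowest genes had V of 3.02 ± 0.19, 3.02 ± 0.08 and 3.0 ± 0.16 (SD, n = 4). Just outside, the nearest unique genes had 2.99 ± 0.04, 2.99 ± 0.20 and 2.99 ± 0.07 (SD, n = 4). The border was therefore not sharp, and 18 genes inside and 30 unique genes outside lay within 1 SD of it.

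**Figure D1:**
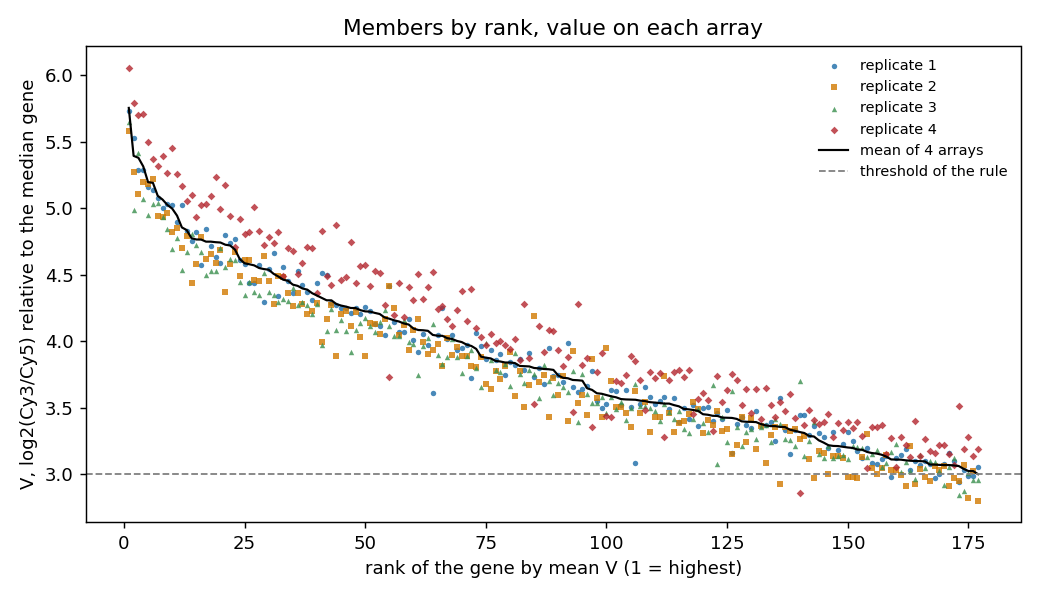
V of each of the 177 genes on the 4 arrays (points, log2 units relative to the median gene) against the rank of the gene by its mean V (line); the dashed line is the threshold of 3. Levels fall steeply over the first ranks and slowly afterwards, and replicate 4 lies above the other arrays for most genes.

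The highest gene was sbay_c648-g8.1, with V of 5.73, 5.58, 5.65 and 6.06 on replicates 1 to 4. Its mean of 5.75 ± 0.21 (SD, n = 4) is 53.9 times the ratio of the median gene. Its genomic DNA signal was ordinary. Relative to the median gene its Cy3 was 5.75 ± 0.18 and its Cy5 was -0.09 ± 0.08 log2 units (SD, n = 4). The probes of sbay_c648-g8.1 had 54 of their 55 nucleotides in common, so their agreement is close to that of 1 probe with itself.

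In sbay_c659-g27.1, the gene of rank 2, V was 5.52, 5.27, 4.99 and 5.79 on replicates 1 to 4, with a mean of 5.39 ± 0.34 (SD, n = 4) or 42.0 times the ratio of the median gene. This gene varied more between arrays than the first, and its value on replicate 3 lay 0.80 log2 units below that on replicate 4. Its Cy5 was close to that of the median gene, at 0.21 ± 0.07 log2 units (SD, n = 4).

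Ranks 3 to 10 followed closely, with mean V of 5.38, 5.31, 5.19, 5.19, 5.09, 5.06, 5.02 and 5.0. The order of neighbours was mostly not resolved. Among the 176 pairs of adjacent ranks, only 2 differed by more than the SD of their difference and in the same direction on all 4 arrays. These were ranks 1 and 2, which were 0.36 ± 0.21 log2 units apart, and ranks 4 and 5, which were 0.12 ± 0.08 apart (SD, n = 4). The median gap between adjacent ranks was 0.0083 log2 units.

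Because the mean of all 4 arrays chose the genes, the choice was repeated on 3 arrays and read on the one left out. The 3 arrays chose 177, 183, 180 and 174 genes when replicates 1 to 4 were left out in turn. On the array left out, 171, 162, 171 and 170 of these genes had V of at least 3, or 96.6%, 88.5%, 95% and 97.7%. The mean share was 94.5% ± 4.11 (SD, n = 4 arrays), with replicate 2 the lowest. Genes chosen in this way had a median V of 3.73, 3.64, 3.67 and 3.92 on the array whose V had no part in choosing them. The filter on Cy5 signal still used all 4 arrays. Across the 177 genes, the Spearman correlation of V on an array with the mean of the other arrays was 0.94 to 0.97. Genes are not independent replicates and share the array and its labelling, so this describes how far the order of genes was kept.

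Replicate 4 stood apart for these genes. Of the 177 genes, 147 had their highest V on replicate 4, whereas replicates 1, 2 and 3 held the highest value for 13, 11 and 6. Over all genes, 34.1% were highest on replicate 4. The lowest value fell on replicate 2 for 70 of the 177 genes and on replicate 3 for 78. Median V was 3.73, 3.69, 3.69 and 3.89 on replicates 1 to 4. Replicate 4 also had the widest spread of V over all genes, with an SD of 1.85 log2 units against 1.77, 1.73 and 1.77 on replicates 1 to 3.

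The SD over the 4 arrays had a median of 0.164 log2 units in the 177 genes, compared with 0.111 over all genes and 0.0999 over the 332 unique genes with V of 2 to 3. This larger spread went with replicate 4. Without it, the median SD was 0.0896 log2 units in the 177 genes and 0.0932 over all genes. When the 4 arrays were given the same distribution of V by quantile normalization, the number of the 177 genes with their highest value on replicates 1 to 4 was 43, 48, 34 and 52. The median SD was then 0.0977 log2 units in the 177 genes and 0.104 over all genes. Quantile normalization makes the highest values alike on all arrays. For genes chosen by a high V, a more even split and a smaller SD were therefore largely set by this step. Whether replicate 4 differed in its RNA or in its labelling and hybridisation cannot be told apart, since each RNA sample had 1 array.

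**Figure D2:**
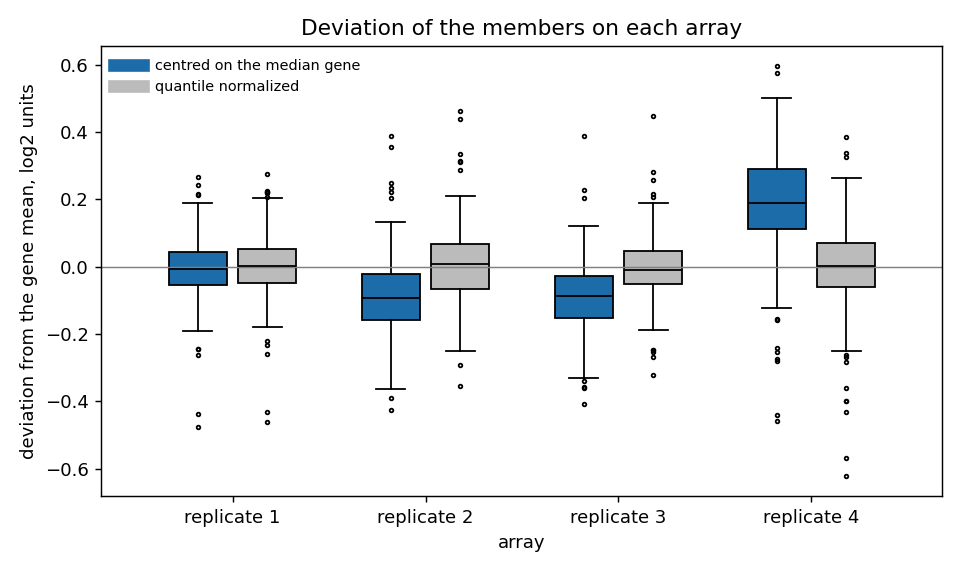
Deviation of each of the 177 genes from its own mean over 4 arrays (log2 units) on each replicate, with V centred on the median gene (blue) and after quantile normalization (grey); boxes give median and quartiles, whiskers reach to 1.5 times the quartile range. The median deviation on replicate 4 was 0.19 log2 units before quantile normalization. After it the 4 arrays lie around 0, which this step largely sets for genes with a high V.

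The gene with the largest spread had rank 44, with V of 4.27, 3.89, 4.08 and 4.87 on replicates 1 to 4. Ranks 41 and 94 came next, with SDs of 0.42 and 0.39 log2 units (n = 4). In all of these 3 genes replicate 4 was the highest array. The steadiest gene had rank 132, with V of 3.37, 3.37, 3.36 and 3.42.

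The share of the 177 genes in the total signal of the gene probes was taken next. They held 31.7%, 31.9%, 31.2% and 33.8% of the background-subtracted Cy3 signal on replicates 1 to 4, or 32.1% ± 1.16 (SD, n = 4). In the same spots lay 5.41% ± 0.118 (SD, n = 4) of the Cy5 signal. Of the sum of the Cy3 to Cy5 ratios they made up 23.7% ± 1.35 (SD, n = 4), and the top 10 genes alone made up 3.20% ± 0.344. Fluorescence is not a count of molecules, so these shares describe signal on the array.

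Brightness did not reach the limit of the scanner in these genes. The brightest Cy3 spot had 437864 scanner units after background subtraction, which was 56.4% of the saturation value, and no spot of the 177 genes was saturated on any array. The median Cy3 spot of the 177 genes had 81066 to 85714 units on single arrays, compared with 2482 to 3176 units for all gene probes. Pixels within their Cy3 spots varied by 14.2% to 15.3% at the median (coefficient of variation), compared with 18.6% to 19.8% for all gene probes.

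These genes were also bright in genomic DNA, which the rule did not ask for beyond detection. Their Cy5 had a median of 0.72 log2 units above the median gene, with quartiles of 0.21 and 1.16 and a range of -1.22 to 2.51. It was above the median gene in 151 of the 177 genes, and by more than 1 log2 unit in 62. For all 5468 genes with a value these counts were 2745 and 233. For the 85 genes removed for shared stretches they were 83 and 59, so this was not limited to the 177 genes. Over all genes the median was 0.00, and over the 332 unique genes with V of 2 to 3 it was 0.01. Cy5 enters V as the divisor, so it is not independent of the values that chose the genes. Why Cy5 was high in these genes was not tested.

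Within the set, Cy5 was higher in the genes with higher V. The median was 0.48 log2 units in the 108 genes with V of 3 to 4, 1.06 in the 60 genes with V of 4 to 5 and 1.08 in the 9 genes above. The 85 genes removed for shared stretches had a higher median Cy5 of 1.26 log2 units. Cy3 and Cy5 moved together across the 177 genes, with a Pearson's r of 0.83 on the means of 4 arrays, and of 0.82 to 0.84 on single arrays. Over all genes r was 0.42 to 0.46 on single arrays. Points in these correlations share the spot, its probe and the scan, and the threshold on Cy3 over Cy5 bounds the cloud of the 177 genes on 1 side, so the values are given with no test.

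**Figure D3:**
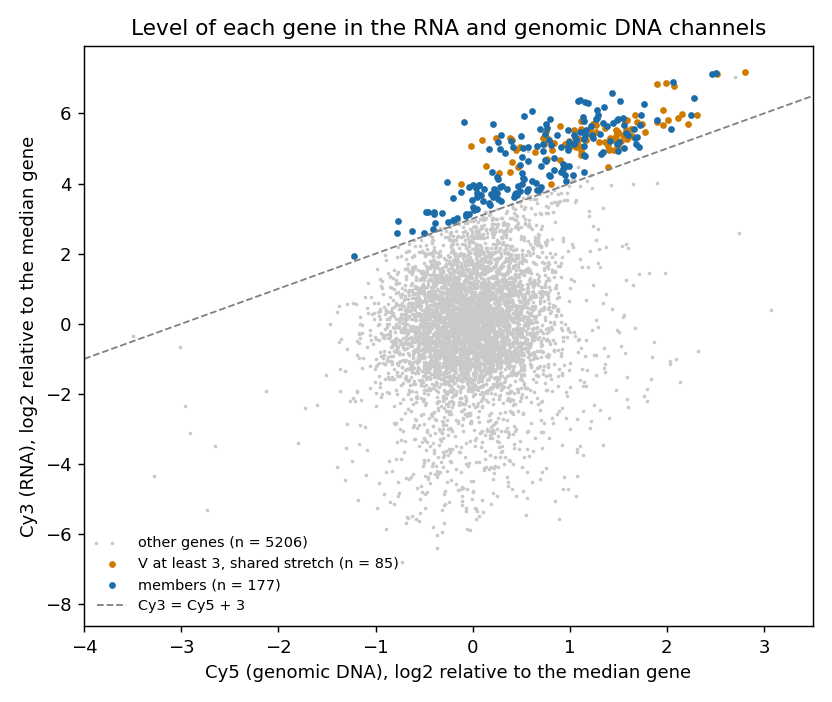
Mean Cy3 (RNA) against mean Cy5 (genomic DNA) of each gene over 4 arrays, both in log2 units relative to the median gene, for the 177 genes (blue), the 85 genes with shared stretches (orange) and the others (grey); 41 genes with Cy5 below the plotted range are not drawn. The blue points lie above the dashed line by the rule, and most lie to the right of 0 in Cy5.

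The base composition of the probes differed little. The probes of the 177 genes had a median GC content of 41.8%, compared with 40.0% over all genes. Among 2893 other unique genes with a GC content between the quartiles of the 177 genes, 40.0% and 43.6%, the median Cy5 was 0.11 log2 units.

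Ranking by RNA signal alone gave another order. Cy3 exceeded that of the median gene by 3 log2 units or more in 167 of the 177 genes. Among the 177 genes, 5 of the 10 highest by Cy3 were also among the 10 highest by V. The gene of the set highest in Cy3, at 7.14 ± 0.23 log2 units, also had the highest Cy5 of the set, 2.51 ± 0.05. It was only rank 28 by V, with 4.57, 4.45, 4.35 and 4.83 on replicates 1 to 4. In contrast, sbay_c648-g8.1 was rank 1 by V and rank 28 by Cy3 within the set. The spread between arrays lay mainly in the RNA channel. Cy3 had a median SD of 0.173 log2 units for the 177 genes, against 0.0727 for Cy5. Its SD was the larger one in 158 of the 177 genes. The same held for 4977 of the 5482 genes on the array, with medians of 0.134 for Cy3 and 0.0554 for Cy5. A larger spread in Cy3 was thus not limited to the 177 genes.

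The 2 probes of a gene measure the same transcript, at places that overlap in 79 of the 177 genes. The rule used their mean and not their difference. It was still not blind to the difference, because 1 low probe lowers the mean and can keep a gene out of the set. The background over all genes had no such limit, so the 2 shares are not fully comparable. The difference between the probes was tested over all genes with limma against 0, with Benjamini-Hochberg adjustment. At an adjusted p under 0.05 and a difference of at least 1 log2 unit, 301 of 5468 genes were called, a background of 5.50%. None of the 177 genes (0 of 177) was called by limma. At an unadjusted p under 0.05 with no minimum difference, limma picked 75 of the 177 genes (42.4%) and 3543 of all genes (64.8%). At a minimum of 0.5 log2 units, 14 of the 177 genes were called against a background of 26.2%, and with no minimum 65 were called against a background of 60.2%. The shares for the 177 genes thus lay below the background at each minimum, a contrast that was not itself tested.

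The absolute difference between the probes had a median of 0.163 log2 units in the 177 genes, 0.226 in the unique genes with V of 2 to 3 and 0.276 over all genes. It was 0.148 in the 85 removed genes with shared stretches, of which 1 was called at 1 log2 unit. The share of genes called at 1 log2 unit fell along the range of V, from 12.6% of the unique genes with V under -3 to 2.41% of those with V of 2 to 3. Overlap of the probes was more frequent in the 177 genes, with 79 of them (44.6%) against 21.9% of all genes and 48.2% of the removed genes with shared stretches. Among the genes whose probes did not overlap, 0 of 98 were called by limma at 1 log2 unit, against a background of 6.38%. The median difference and the shares called at lower minimums were not worked out for these genes alone.

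**Figure D4:**
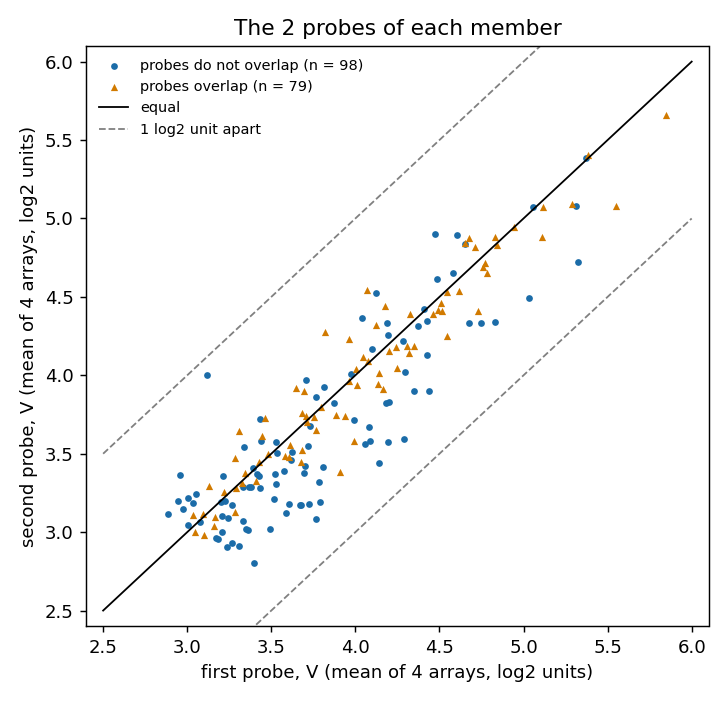
V of the second probe against V of the first probe for the 177 genes (means of 4 arrays, log2 units), with genes whose probes overlap as orange triangles; the solid line marks equal values and the dashed lines 1 log2 unit. All 177 points lie between the dashed lines, and the largest difference is 0.88 log2 units.

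The largest difference was found in the gene of rank 106, whose second probe was higher by 0.73, 1.13, 1.27 and 0.40 log2 units on replicates 1 to 4. Its mean of 0.88 ± 0.40 (SD, n = 4; limma adjusted p = 0.00165) thus passed 1 log2 unit on 2 of the 4 arrays. In the gene of rank 73 the second probe was lower by a steady amount, at -0.69, -0.73, -0.64 and -0.72 log2 units (mean -0.69 ± 0.04, SD, n = 4; limma adjusted p = 7.54e-05). Rank 87 was similar, at -0.70 ± 0.09 (SD, n = 4; limma adjusted p = 0.000105).

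The direction of these differences followed that of the array. Of the 14 genes called at 0.5 log2 units, the first probe was higher in 13 and the second in 1, compared with 1123 and 309 of all genes. The first probe was the downstream one in all 79 overlapping pairs of the set and in 1197 of the 1199 overlapping pairs of the array. For pairs that do not overlap, the order along the gene is not known from the sequences. A probe with a stop codon in every reading frame was found among first probes for 9.60% of the 177 genes and 16.1% of all genes, and among second probes for 0 of the 177 genes and 6 of all genes.

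The letters of the probes gave a feature that the rule did not use, namely the choice of codons. A share of preferred codons was counted in probes with exactly 1 reading frame free of stop codons. The preferred list held 23 codons for 18 amino acids and came from textbook knowledge of highly expressed genes of Saccharomyces cerevisiae. Such a probe was found for 123 of the 177 genes, in 168 probes with 2865 codons. Of these codons 2166 were preferred, or 75.6% (95% Wilson interval 74.0% to 77.1%, counting error only, with codons of 1 gene not independent). Where 2 such probes of a gene overlapped, the codons in the overlap were counted once for each probe. This interval and those below are therefore too narrow. The share was 59.4% in the unique genes with V of 2 to 3 and 49.9% over all genes. In the 85 genes removed for shared stretches, which also had V of at least 3, it was 78.9%. A high share was thus not limited to genes with unique probes.

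By gene, the median share was 81.3% in the 123 genes, with quartiles of 63.6% and 88.9%, against 48.6% in 4090 genes of the whole array. A share of at least 80% was found in 63 of the 123 genes (51.2%) and in 155 of all genes (3.79%). The removed genes with shared stretches had a median of 83.3%, and 35 of 54 (64.8%) had at least 80%. The genes were not uniform, and 17 of the 123 had a share under 50%. In the gene of rank 1, sbay_c648-g8.1, 87.1% of 31 codons were preferred, and in sbay_c659-g27.1, of rank 2, 97.1% of 35. The probes of sbay_c648-g8.1 had 54 of 55 nucleotides in common, so nearly all of its codons were counted once for each probe. The gene of rank 8 stood apart from the others of ranks 1 to 10 that had a value, with 25% of 16 codons. Ranks 7 and 9 had no value. The 1 open frame of a probe was taken as its coding frame, which was not checked.

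The share rose with V within the set. Of the 123 genes with a value, the highest 41 had a median of 88.9%, the middle 41 of 76.5% and the lowest 41 of 72.2%. Spearman's rho between V and the share was 0.53 over the 123 genes, 0.24 over 3642 unique genes with V under 3 and 0.29 over 4080 genes with both values. Genes are not independent replicates, and each share rests on few codons. Along the range of V the median was lowest, at 44.4%, in the genes with V of -2 to -1, and reached 94.4% in the 7 genes with V of 5 or more.

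**Figure D5:**
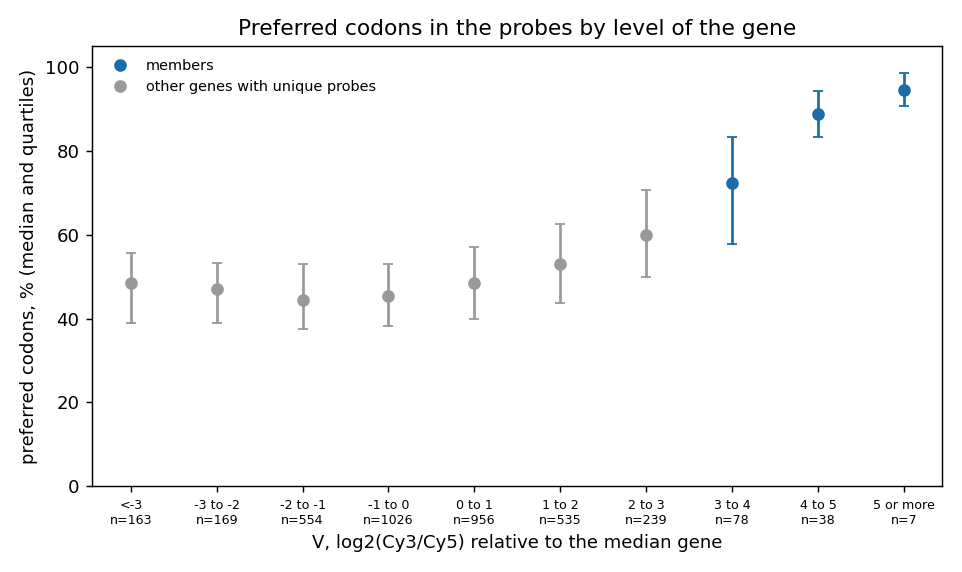
Share of preferred codons in the probes (percent, median as point, quartiles as bars) of genes with unique probes, in steps of V (log2 units relative to the median gene); n is the number of genes with a value, and the 177 genes are blue. The medians lie between 44.4% and 60.0% below a V of 3 and reach 72.2%, 88.9% and 94.4% above it.

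By amino acid, the 123 genes had the higher share of preferred codons in 18 of 18 amino acids against all genes outside the set, and the Wilson intervals did not overlap in 17. These intervals also count codons in the overlap of probes once for each probe. The largest gap was that of glycine, where GGT made up 86.9% of the codons in the set and 44.8% outside it. Alanine had 94.2% of GCT and GCC against 60.0%, proline 76.8% of CCA against 39.8%, and leucine 58.3% of TTG against 31.3%. Cysteine had the smallest gap, with 65.6% of TGT against 61.5%. In the highest 41 of these genes by V, AGA made up 85.5% of the arginine codons, against 68.7% in the whole set and 52.2% outside it.

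The other strand and the choice of probe bore on this count as follows. Reading the opposite strand of the probes in the same way gave medians of 50.0% over 114 of the 177 genes and 44.1% over 3846 of all genes. Second probes alone gave 83.3% over 86 of the 177 genes and 50.0% over the array, and first probes alone 76.5% over 82 genes and 47.1%. When all open frames of a probe were averaged, so that each of the 177 genes had a value, the medians were 65.7% and 47.2%.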

How the data were processed

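The 4 arrays lay on 1 slide and were scanned on 1 date. Per the file headers, spots were read with Agilent Feature Extraction 10.1.1.1, a version other than the one in the study's methods. The deposited spot tables give intensity on a linear scale, as the median over pixels and the local background, and the software's calls of background, outlier and saturated spots. The median background was subtracted from the median signal in each channel, and log2 of Cy3 over Cy5 was taken, as in the methods of the study. Control spots were left out, and 14 genes without a value on every array could not be members. The authors' deposited log2 table names no probe or gene, and its direction and scale come from its set of values. Of these, 96.1% to 99.2% per array lay within 1e-06 of log2 of the mean Cy3 to Cy5 ratio of a gene's probes with no background subtracted. The other values equalled 1 probe. Its column medians were -2.36, -2.25, -2.17 and -2.33, so it was not centred. This table was not used for results. The alternative without background subtraction was computed from the spot tables instead.

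Probe differences were fitted with an intercept-only model in limma 3.58.1 under R 4.3.3 (lmFit, eBayes, 2-sided) over all genes. Other values came from Python 3.11.15 (scipy 1.17.1, pandas 2.3.3, numpy 2.4.6). Probes were taken to overlap where the end of one matched the start of the other over at least 10 nucleotides. The calculation was run on simulated data with planted differences well beyond the thresholds, which does not cover genes near them. Only the 2 highest genes are printed by identifier, and the other genes singled out are those with the largest or smallest spread, the largest probe differences and the values nearest the threshold. The steadiest gene, the gene of rank 8 and the gene of the set highest in Cy3 were chosen after their values were seen. The genes, lists and rules were chosen with earlier results of these data known. The number of arrays limits the precision of every SD. Counts of named pathways were planned but not made, because identifiers carry no gene names.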

Additional observations from a re-analysis of the deposited data

Results flagged for a closer look

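Of 30 values screened for an array far from the other 3, 7 stood apart (Dixon's ratio above its 95% critical value), and chance sets apart about 1 in 20 groups. This compares arrays within a value, not genes with each other. Many of the values are taken from the same spots and move together.

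Replicate 4 accounted for 5 of them. It held the highest V for 147 of the 177 genes, against 6 to 13 on the other arrays. Its spots gave the 177 genes 5.24% of the Cy5 signal, against 5.45% to 5.49%. The correlation of Cy3 with Cy5 on replicate 4 was 0.817 over the 177 genes, against 0.836 to 0.839, and 0.422 over all genes, against 0.459 to 0.463. Among the 10 highest genes, whose V was screened 1 by 1, the gene of rank 8 had a V of 5.39 on replicate 4, against 4.93 to 5.0.

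On replicate 2, 162 of the genes chosen on the other arrays reached a V of 3, against 170 to 171 on the arrays that remained. The numbers chosen differed, and as shares of them replicate 2 did not stand apart, with a ratio of 0.71. On replicate 1 the scanner software set aside 5 spots of the 177 genes as outliers, against 0 on each other array. Over all gene probes it set aside 121 spots on replicate 1, against 32, 33 and 42 on replicates 2 to 4. The higher number on replicate 1 was thus not limited to the 177 genes.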

How the results depend on the processing

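Of 58 recomputations under other settings, 36 stayed close to the reported value and 22 moved. Close meant within 1.5 times for a number of genes, within 1 SD over arrays for V and shares on a left-out array, within 1 SD of the leave-one-out values for the SD, and within the Wilson half-width for codons. The number of genes chosen was 1 with the software's processed signals, a gene not among the 177, and 1 with loess within arrays after normexp, one of the 177. It was 311 with V of at least 2.5 and 115 with V of at least 3.5. Leaving out 1 array gave 174 to 183 genes. Cy3 alone gave 235, with 167 of the 177, and shared stretches of 15 and 25 nucleotides gave 146 and 197. With normexp and an offset of 50, 148 genes were chosen, of which 132 were among the 177. The median V was 0.87 with processed signals and 3.31 with normexp, and 3.69 to 3.81 with 1 array left out. The median SD was 0.0811 with processed signals and 0.0977 after quantile normalization. It was 0.0896 to 0.188 with 1 array left out, the lowest without replicate 4. The share that reached the threshold on the array left out was 100% with processed signals, where 1 gene was chosen. The number of genes with differing probes was 13 with processed signals (13.5% of all genes), 1 with means over pixels (5.72%), 6 with normexp (10%), 4 for Cy3 alone (4.47%), 14 at 0.5 log2 units and 65 with no minimum. With 1 array left out it was 0 to 1, with 1 without replicate 4. Preferred codons made up 65.7% with all open frames, 79.4% with both probes required (45 genes), 70.6% at V of at least 2.5 and 87.9% at 3.5. With second probes alone, an alternative added after seeing the data, the share was 83.3%. The causes were not tested. No paired analysis was possible because there is 1 group of samples. Array number and the spread of spot signal limit all SDs.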

Other observations

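By position in the numbering of the array design, the 177 genes had 337 direct neighbours with a value in the same block of the assembly. The neighbours had a median V of 0.10, close to the -0.00 of neighbours over all genes. A V of at least 3 was found for 30 of the 337 neighbours (8.90%), compared with 5.01% of the neighbours of all genes and 4.25% for the unique genes with V of 2 to 3. For the removed genes with shared stretches it was 18 of 164 neighbours (11.0%), so this was not limited to the 177 genes. Neighbouring numbers were taken as neighbours without a map of the genome. Among the 177 genes 10 pairs were adjacent, and each of these pairs entered the 30 neighbours from both sides. Neighbours of the other groups were counted in the same way, so these shares are not of separate genes.

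The 177 genes lay in 102 of the 388 blocks, with 55 blocks holding 1 of them. The most in a block was 5, in block 612 with 41 genes and in block 676 with 63. Of the 59 blocks with at least 30 genes, 15 held none. Blocks 578, 626 and 678 could hold none of the 177 genes, because the rule left them out. No expected number of empty blocks was worked out.

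In the probes with 1 open frame, the share of 4 of 20 amino acids in the 123 genes with such a probe had a 95% Wilson interval that left out the share over all genes, 2 higher and 2 lower. Alanine made up 6.45% of their codons (5.62% to 7.39%) and 4.89% of those of all genes, and threonine 6.34% (5.52% to 7.28%) against 5.49%. Serine was at 6.28% (5.46% to 7.21%) against 7.52%, and glutamine at 2.83% (2.3% to 3.5%) against 3.56%. In the genes removed for shared stretches the shares were 7.81% for alanine, 5.16% for threonine, 6.71% for serine and 3.46% for glutamine. Threonine there was thus below the share over all genes. The intervals cover counting error only, and codons in the overlap of probes were counted once for each probe. No correction was made for looking at 20 amino acids.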
